A study of Mus musculus with 10 samples.

Results

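Short-lived mRNAs of cytokines, chemokines and growth factors are removed by a small set of RNA-binding proteins, and 8 of their genes are described here in cultured mouse hepatic stellate cells with and without amphiregulin. The 8 genes, of 36047 genes summed from the deposited transcripts, were chosen by name: Zfp36, Zfp36l1, Zfp36l2, Zc3h12a, Zc3h12c, Elavl1, Khsrp and Rc3h1. Stellate cells are the vitamin A-storing pericytes of the liver sinusoid, and amphiregulin (Areg) activates the receptor EGFR. Both groups were liver cells of male C57BL/6 mice, described as quiescent when isolated, and both spent 5 h in culture before 4 h in starving media. The Areg group (5 libraries) received recombinant mouse Areg at 500 ng/mL in those 4 h, and the control group (5 libraries) did not. Whether the 5 libraries of a group came from separate animals or cultures is not in the labels, so p-values reflect library-to-library spread, part of which may be technical.

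Proteins of the ZFP36 family (tristetraprolin, encoded by Zfp36, and its relatives encoded by Zfp36l1 and Zfp36l2) carry paired CCCH zinc fingers that bind AU-rich elements in 3′ untranslated regions (3′ UTRs) and recruit the CCR4-NOT deadenylase, which starts decay of the mRNA. Regnase-1 (Zc3h12a) is an endonuclease that cuts stem-loops in 3′ UTRs, Regnase-3 (Zc3h12c) is its relative, and Roquin-1 (Rc3h1) binds stem-loops and also recruits deadenylases. KSRP (Khsrp) binds AU-rich elements and promotes decay, whereas HuR (Elavl1) binds similar elements and stabilizes many of the same mRNAs. The ZFP36 proteins are also controlled after translation, by phosphorylation, which RNA counts do not measure.

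The core AU-rich motif bound by the ZFP36 family, TATTTAT in DNA letters, is shown first because the family's own transcripts carry it, as do some of the cytokine transcripts that rose with Areg, among them Il6, Cxcl1 and Il11. Each line gives 30 bases of a 3′ UTR on the transcript strand, 5′ to 3′, from the GENCODE M21 transcript of GRCm38 with the most RNA in these libraries (for Elavl1, its longer form), with every complete TATTTAT in capitals. Of the windows around a TATTTAT in each 3′ UTR, the one with most copies of the 9-base motif TTATTTATT is shown. Ties were settled by copies of TATTTAT, then of ATTTA, then by A and T content. Neighbouring TATTTAT motifs may overlap by up to 3 letters.
Zfp36, chr7:28376950-28376979, minus strand: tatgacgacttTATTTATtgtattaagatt
Zfp36l1, chr12:80108166-80108195, minus strand: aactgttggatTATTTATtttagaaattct
Zfp36l2, chr17:84184913-84184942, minus strand: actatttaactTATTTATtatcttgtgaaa
Elavl1 (Elavl1-201), chr8:4285775-4285804, minus strand: attTATTTATTTATTTATtttTATTTATtt
Il6, chr5:30019728-30019757, plus strand: tttatgattgaTATTTATtatttttatgaa
Ptgs2, chr1:150105794-150105823, plus strand: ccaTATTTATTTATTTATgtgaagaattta
Cxcl1, chr5:90892611-90892640, plus strand: attTATTTATgTATTTATTTATtccacaaa
Il11, chr7:4773501-4773530, minus strand: aaaccagatctTATTTATTTATTTATtttg
The 3 ZFP36-family windows and the Il6 window each hold a single motif, whereas the Ptgs2, Cxcl1 and Il11 windows each hold 3 and the Elavl1-201 window holds 4. The motif was searched on the transcript strand alone, since a protein that binds RNA reads that strand. Zfp36, Zfp36l1 and Zfp36l2 each had 3 copies in the 3′ UTR of their main transcript, Zc3h12c and Rc3h1 each had 2, and Zc3h12a, Khsrp and the main Elavl1 form (Elavl1-204) had none. The motif was thus found in 5 of the 8 genes, against 27.5% of the 3′ UTRs of 12862 tested genes. The 3′ UTRs of the 8 genes had a median of 1732 bases against 924 bases over all tested genes. Those of Zfp36 (774 bases) and Zc3h12a (856 bases) were shorter than 924 bases. In the first 500 bases after the stop codon none of the 8 held the motif, against 11.8% of the 8719 tested genes with so long a 3′ UTR. A match of letters is not a measured binding site.

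The 10 libraries held 10125184 to 20057962 estimated counts. Controls 3 and 4, which had the fewest, stood apart on the first principal component (34.7 and 22.7, against -13.1 to 0.881 in the 8 other libraries), so values without these 2 libraries are given beside the results they change. Stellate cell markers summed to 12716 to 13317 CPM (counts per 1000000 counts, TMM-scaled) in controls and 12258 to 12669 CPM in Areg libraries, with 15 of the 16 tested and Gfap at 0.0548 to 0.651 CPM. Within that list 5 genes fell and 1 rose, where 8.32% of all tested genes fell and 8.34% rose. All 11 sinusoidal endothelial markers were tested too (5515 to 6127 CPM in controls, 5500 to 5577 CPM with Areg). Cdh5 alone made a large part of that sum, with a mean of 2747 CPM in controls, whereas Clec4g had 140 CPM. With the hepatocyte and Kupffer cell markers given next, the counts are not those of stellate cells alone. Hepatocyte markers (11 of 11 tested) summed to 1643 to 2632 and 1819 to 2270 CPM, Kupffer cell and macrophage markers (12 of 12) to 669 to 732 and 664 to 713 CPM, and smooth muscle and portal fibroblast markers (9 of 12) to 211 to 248 and 232 to 252 CPM. Cholangiocyte markers (4 of 8 tested) summed to 39.9 to 49.8 and 82.1 to 95.2 CPM, of which Spp1 alone made 39.7 and 81.9 CPM on average, and lymphocyte and neutrophil markers, with none of 12 tested, reached at most 3.79 CPM. Of the tested markers of these other cell types, 2 endothelial markers fell, 1 hepatocyte marker rose and 1 fell, 1 cholangiocyte and 1 smooth muscle or portal fibroblast marker rose, and no Kupffer cell or macrophage marker was called. The part of these cells in the results below was not tested.

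All 8 decay factor genes were expressed in both groups, and none changed past the threshold with Areg. The numbers called higher and lower by edgeR's quasi-likelihood test (adjusted p under 0.05 over 13362 genes) were 0 and 0 of 8, where 8.34% of all tested genes were called higher, 8.32% lower and 16.7% in either direction. DESeq2 and limma-voom also called 0 of 8. At an unadjusted edgeR p under 0.05 there were 3 of 8 (Zc3h12c, Elavl1 and Khsrp), against 31.4% of all tested genes. The CPM of the 2 groups overlapped for all 8, whereas 14.7% of tested genes did not overlap. The median log2 fold change was -0.015 over the 8 genes and -0.0067 over all tested genes. In the main fit the 8 intervals of 95% lay between 0.833-fold (the lower bound of Khsrp) and 1.35-fold (the upper bound of Zc3h12c). These intervals cover spread between libraries in that fit alone. A later setting removed each library's trend with transcript length and GC content and left out controls 3 and 4. There the log2 fold changes of Zfp36 (0.21), Zc3h12a (0.16), Elavl1 (-0.012) and Khsrp (0.028) lay outside their main intervals. Those of Zfp36l1, Zfp36l2, Zc3h12c and Rc3h1 lay inside. In bulk RNA, fewer expressing cells and less RNA per cell cannot be told apart.

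**Figure D1:**
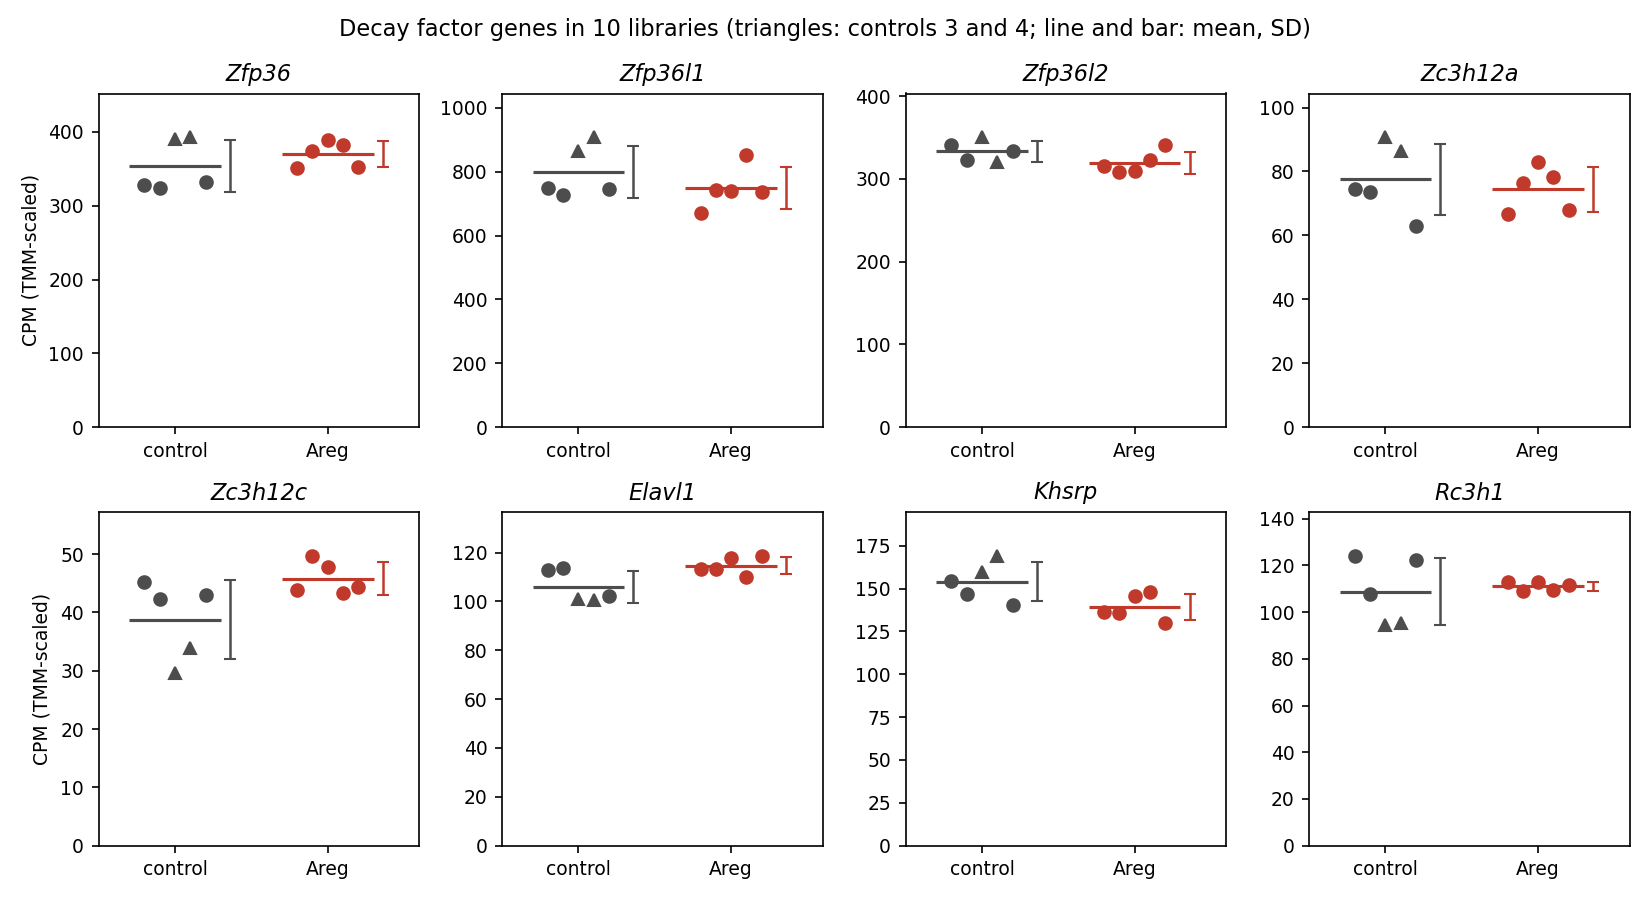
CPM (TMM-scaled, y axes from 0) of the 8 decay factor genes in 5 control libraries (grey) and 5 Areg libraries (red), with controls 3 and 4 as triangles and the mean and SD as line and bar. The 2 groups overlap in every panel, and the triangles sit above the other controls for Zfp36, Zfp36l1, Zc3h12a and Khsrp and below them for Zc3h12c, Elavl1 and Rc3h1.

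Levels between genes were compared as TPM, transcripts per 1000000 transcripts, which are per length. Zfp36l1 was the most abundant in controls, at 470 ± 35.2 TPM (mean ± SD, n = 5, as below), a level above 97.8% of tested protein-coding genes. It was followed by Zfp36 (231 ± 17.6 TPM), Zfp36l2 (162 ± 9.46 TPM), Khsrp (80.1 ± 5.36 TPM), Elavl1 (69.7 ± 5.02 TPM) and Zc3h12a (58.8 ± 8.90 TPM). Rc3h1 (18.7 ± 3.53 TPM) and Zc3h12c (9.67 ± 2.04 TPM) came last, so the ZFP36 family lay above the endonucleases and Roquin. The ranges of neighbours in this order did not overlap over the control libraries, except for Khsrp with Elavl1 and Elavl1 with Zc3h12a. With Areg the order of the 8 mean levels differed in 1 place, with Elavl1 (74.9 ± 7.12 TPM) above Khsrp (69.8 ± 4.00 TPM), and these 2 genes overlapped in that group as well.

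Zfp36 encodes tristetraprolin, which binds AU-rich elements and is itself an immediate early gene in many cells. It lies on chromosome 7 from 28376784 to 28380253 on the minus strand. Its counts were 328, 324, 390, 393 and 332 CPM in controls 1 to 5 and 351, 374, 390, 382 and 353 CPM in Areg libraries 1 to 5. Every Areg library was above controls 1, 2 and 5 and below control 4, so the groups overlapped through controls 3 and 4. The log2 fold change was 0.066 (SE 0.061; 95% interval -0.063 to 0.19; edgeR adjusted p = 0.497). Zfp36 was called higher when controls 3 and 4 were left out (log2 fold change 0.17, edgeR adjusted p = 0.00517), when each library's trend with transcript length and GC content was removed (0.15, edgeR adjusted p = 0.0268), and under both together (0.21, edgeR adjusted p = 0.000359). These 3 settings were added once the values were known, and the 20 other alternatives left it uncalled.

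Zfp36l1, a second deadenylase-recruiting member, lies on chromosome 12 (80107754 to 80113013, minus strand). Its counts were 748, 727, 866, 909 and 747 CPM in controls and 671, 743, 740, 853 and 737 CPM with Areg. The lowest value belonged to an Areg library and the highest to control 4, and the 2 groups shared most of their range. Between the groups its log2 fold change was -0.094 (SE 0.071; 95% interval -0.25 to 0.057; edgeR adjusted p = 0.394), and it was 0.018 without controls 3 and 4.

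Zfp36l2, on chromosome 17 (84183931 to 84187947, minus strand), had 341, 323, 351, 320 and 333 CPM in controls and 315, 308, 310, 323 and 340 CPM with Areg. It was the steadiest of the 3 relatives in controls, where its range of 320 to 351 CPM did not set controls 3 and 4 apart. Its log2 fold change was -0.063 (SE 0.045; 95% interval -0.16 to 0.032; edgeR adjusted p = 0.365). Of the summed TPM of the 3 family genes, Zfp36 held 26.7 ± 0.972% in controls and 29.2 ± 1.11% with Areg, and Zfp36l1 held 54.5 ± 1.04% and 52.1 ± 1.63%. Zfp36l2 held 18.8 ± 1.41% and 18.7 ± 1.17%.

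Zc3h12a encodes Regnase-1, which degrades mRNAs such as that of interleukin-6. It lies on chromosome 4 (125118423 to 125127840, minus strand) and had 74.6, 73.4, 90.8, 86.3 and 62.9 CPM in controls and 66.6, 76.4, 83.0, 78.3 and 68.0 CPM with Areg. The control values enclosed all 5 Areg values. The log2 fold change was -0.056 (SE 0.090; 95% interval -0.25 to 0.14; edgeR adjusted p = 0.717), and it was 0.083 without controls 3 and 4.

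Zc3h12c, the gene of the related nuclease Regnase-3, is on chromosome 9 (52111344 to 52168572, minus strand). It had 45.2, 42.3, 29.5, 33.8 and 43.0 CPM in controls and 43.8, 49.7, 47.7, 43.3 and 44.4 CPM with Areg. Controls 3 and 4 were the 2 lowest of the 10 values, and the 3 other controls lay within or just under the Areg range. Its log2 fold change of 0.23 was the largest of the 8 in size (SE 0.097; 95% interval 0.025 to 0.44; edgeR adjusted p = 0.115). It was 0.078 without controls 3 and 4, and it was called only without control 1 (0.29, edgeR adjusted p = 0.0469) among the 23 alternatives.

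Rc3h1, the Roquin-1 gene, is on chromosome 1 (160906418 to 160974978, plus strand). It had 124, 108, 94.7, 95.3 and 122 CPM in controls and 113, 109, 113, 109 and 112 CPM with Areg. The 5 Areg libraries lay close together, inside the wider control range. Rc3h1 had a log2 fold change of 0.027 (SE 0.070; 95% interval -0.12 to 0.18; edgeR adjusted p = 0.836), and it was -0.085 without controls 3 and 4.

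Elavl1, the gene of the stabilizing factor HuR, lies on chromosome 8 (4285382 to 4325413, minus strand). It had 113, 114, 101, 101 and 102 CPM in controls and 113, 113, 118, 110 and 119 CPM with Areg. Controls 3, 4 and 5 were below every Areg library, and controls 1 and 2 lay among them. The log2 fold change was 0.11 (SE 0.050; 95% interval 0.0058 to 0.22; edgeR adjusted p = 0.138). It was 0.068 without controls 3 and 4 and -0.018 with the length and GC trend removed.

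Khsrp, the gene of the decay-promoting factor KSRP, is on chromosome 17 (57021051 to 57031522, minus strand). It had 154, 147, 160, 169 and 140 CPM in controls and 136, 136, 145, 148 and 130 CPM with Areg. Controls 1, 3 and 4 were above every Areg library, and controls 2 and 5 fell within the Areg range. With Areg Khsrp had a log2 fold change of -0.15 (SE 0.055; 95% interval -0.26 to -0.030; edgeR adjusted p = 0.0794). Khsrp was called lower without control 5 (-0.18, edgeR adjusted p = 0.0373), and its value was -0.079 without controls 3 and 4 and 0.026 with the length and GC trend removed.

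**Figure D2:**
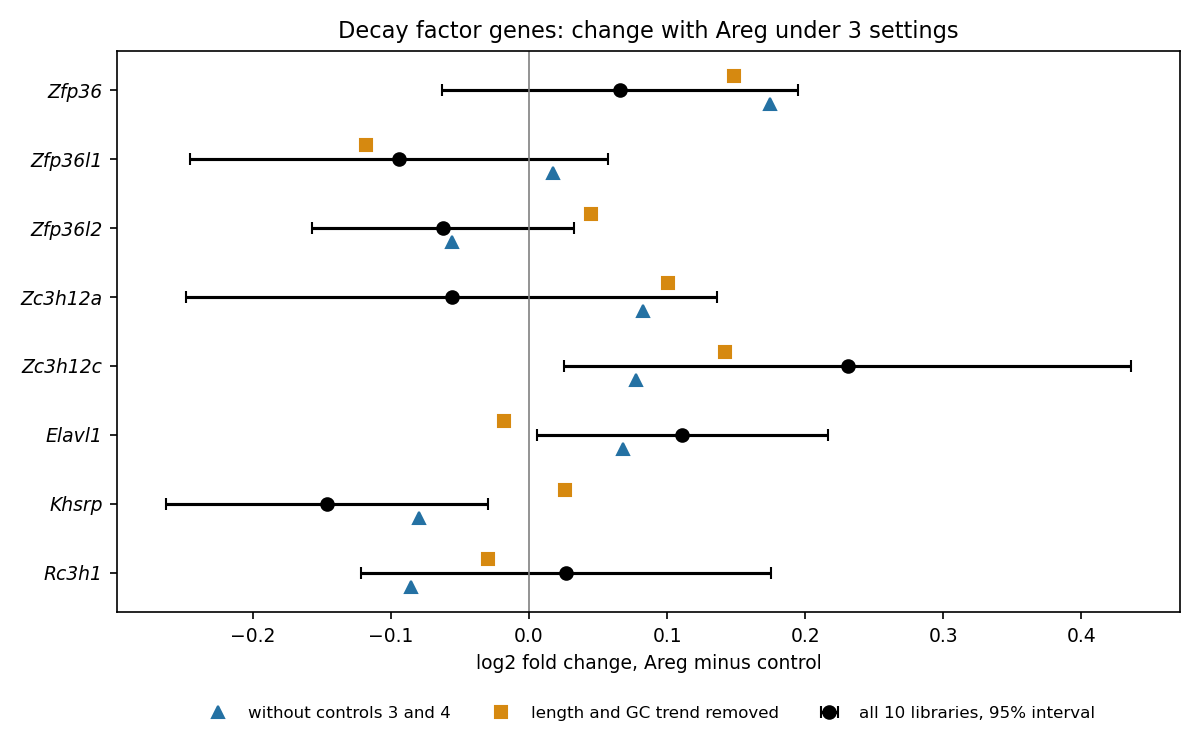
Log2 fold change (Areg minus control, x axis) of the 8 decay factor genes, with all 10 libraries and the 95% interval in black, without controls 3 and 4 as blue triangles and with the length and GC trend removed as orange squares. Zfp36 moves from 0.066 to 0.17 and 0.15, Zc3h12c from 0.23 to 0.078 and 0.14, and Khsrp from -0.15 to -0.079 and 0.026.

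The side on which controls 3 and 4 fell is set beside base composition for these genes alone, and no link was tested. Both were above the 3 other controls for Zfp36, Zfp36l1, Zc3h12a and Khsrp, whose main transcripts have a GC content of 54.1, 49.0, 57.1 and 57.3%. Both were below the others for Zc3h12c, Elavl1 and Rc3h1, at 41.4, 43.0 and 41.7% GC, and they overlapped the others for Zfp36l2, at 54.8% GC. The median over tested genes was 50.1%, so Zfp36l1 lay under it although both controls were above the others. Of these main transcripts, those of Rc3h1 (11006 bases) and Zc3h12c (6764 bases) were the longest and that of Elavl1 (2317 bases) the shortest. With the length and GC trend removed the sign changed for Zfp36l2 (0.045), Zc3h12a (0.10), Elavl1 (-0.018), Khsrp (0.026) and Rc3h1 (-0.030), and none of these 5 was called.

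The genes most alike to Zfp36 in log2 CPM over the 10 libraries, among 8613 protein-coding genes of at least 10 CPM, were Zbp1, Cdc42ep4, Actb, Zyx and Hmga1, with Pearson r from 0.946 for Zbp1 to 0.929 for Hmga1. For Zc3h12a they were Pik3cd, Nfkb2, Rhob, Nol6 and Rab35, from 0.918 for Pik3cd to 0.906 for Rab35. All 10 had r of at least 0.824 without controls 3 and 4, and none was called between the groups. They were picked for the highest r in these same libraries, so the choice itself favours high values in both settings. These values describe points that share a library, with its depth and composition.

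Since a ratio of 2 genes within a library does not depend on library size, 7 pairs were compared by a two-sided exact permutation test over the 252 arrangements of the libraries, with a smallest possible p of 0.00794. None passed after Benjamini-Hochberg adjustment over the 7. The mean log2 ratio of Zfp36 to Zfp36l1 was -1.18 ± 0.023 in controls and -1.01 ± 0.098 with Areg, a difference of 0.16 (exact p = 0.0159, adjusted 0.0556). In this pair controls 3 and 4 did not stand apart, at -1.15 and -1.21, and the difference was 0.16 without them as well (exact p = 0.0536). The log2 ratio of Elavl1 to Khsrp, the stabilizer over the decay promoter, was -0.54 ± 0.16 in controls and -0.28 ± 0.11 with Areg, a difference of 0.26 (exact p = 0.0159, adjusted 0.0556), and 0.15 without controls 3 and 4. Only Areg library 4, at -0.43, lay within the control range of -0.75 to -0.37. The main transcripts of Elavl1 and Khsrp differ in GC content, at 43.0 and 57.3%. With the length and GC trend removed, the log2 fold changes of the 2 genes were -0.018 and 0.026. Their ratio was not tested in that setting. The 5 other pairs had differences from -0.31 to 0.13 and adjusted exact p-values from 0.333 to 0.746. Without controls 3 and 4 these 5 differences ran from 0.0084 (Zc3h12a to Zc3h12c, -0.31 with all libraries) to 0.23 (Zfp36 to Zfp36l2, 0.13 with all libraries; exact p = 0.0357, adjusted 0.188).

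The form of the transcripts was compared for the 5 genes with at least 2 transcripts over 5% of the gene's TPM, and Roquin-1 was the one that passed the test. Its long form, Rc3h1-202, held 83.2, 85.1, 86.5, 84.5 and 75.0% of Rc3h1 TPM in controls and 88.3, 98.6, 91.6, 91.3 and 93.6% with Areg. All 5 Areg libraries were above all 5 controls. The mean share rose from 82.9 ± 4.55% to 92.7 ± 3.82%, by 9.80 percentage points (two-sided exact permutation p = 0.00794, the smallest the design allows; adjusted over the 5 genes, 0.0397). Without control 5 the difference was 7.84 points (adjusted exact p = 0.0794). Without controls 3 and 4 it was 11.6 points (adjusted exact p = 0.0893), where 3 libraries against 5 allow no p under 0.0179. On estimated counts, in which the long form weighs more, it was 3.49 points (adjusted exact p = 0.0397).

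The 2 Rc3h1 forms end at the same stop codon and differ chiefly in what follows it. Rc3h1-202 is 11006 bases long with 20 exons and a 3′ UTR of 7181 bases that holds both TATTTAT copies, and Rc3h1-201 is 3476 bases long with 19 exons and a 3′ UTR of 20 bases with none. Their last exons start at the same base (160967647) and end at 160974978 in Rc3h1-202 and at 160967817 in Rc3h1-201. They also differ at the 5′ end and in 1 internal exon, of 171 bases in Rc3h1-202 and 144 in Rc3h1-201. The remaining exons have the same coordinates in both forms, and reads in them were divided between the forms by estimation, whereas most of the last exon of Rc3h1-202, of 7332 bases against 171 in Rc3h1-201, lies in the long form alone. Each differing exon of Rc3h1-201 lies inside a longer exon of Rc3h1-202. No stretch of exon thus belongs to the short form alone, and its share rests largely on that estimation. Whether the difference in share reflects the form made or the coverage along the long 3′ UTR was not tested. The gene had 943 to 2239 estimated counts per library.

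HuR transcripts also come in forms with different 3′ UTRs. Elavl1-204, with a 3′ UTR of 1257 bases and no TATTTAT, held 81.4 ± 0.994% of Elavl1 TPM in controls and 77.1 ± 4.60% with Areg, and Elavl1-201, with a 3′ UTR of 4218 bases and 8 copies, held 12.6 ± 1.82% and 13.5 ± 1.94%. The difference in the Elavl1-204 share was -4.27 points (exact p = 0.0556, adjusted 0.139). The libraries ran from 80.0 to 82.7% in controls and from 69.8 to 82.2% with Areg, and without Areg library 4 the difference was -5.55 points (adjusted exact p = 0.0198). A retained-intron form, Elavl1-203, held 5.89 ± 1.58% and 9.26 ± 5.84%.

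The main forms of Zfp36, Zc3h12a and Khsrp differed by -1.77, -0.16 and 0.68 points, with adjusted exact p-values of 0.933 to 0.968. Without controls 3 and 4 these differences were -5.97, 1.79 and 1.25 points, with adjusted exact p-values of 0.357 to 0.714. Zfp36-201, with 2 exons, held 61.7 ± 6.46% and 59.9 ± 5.82% of Zfp36 TPM, and the remainder was the single-exon model Zfp36-202, whose 3′ UTR has the same 3 motif copies. For Zc3h12a and Khsrp, transcripts annotated as retaining an intron held a sizeable part of the TPM, at 20.4 ± 6.68% and 20.6 ± 4.21% for Zc3h12a-202 and 18.7 ± 2.21% and 16.0 ± 2.90% for Khsrp-204. Zfp36l1-201, Zc3h12c-202 and Zfp36l2-201 each held over 95% of their gene's TPM on average over the 10 libraries.

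**Figure D3:**
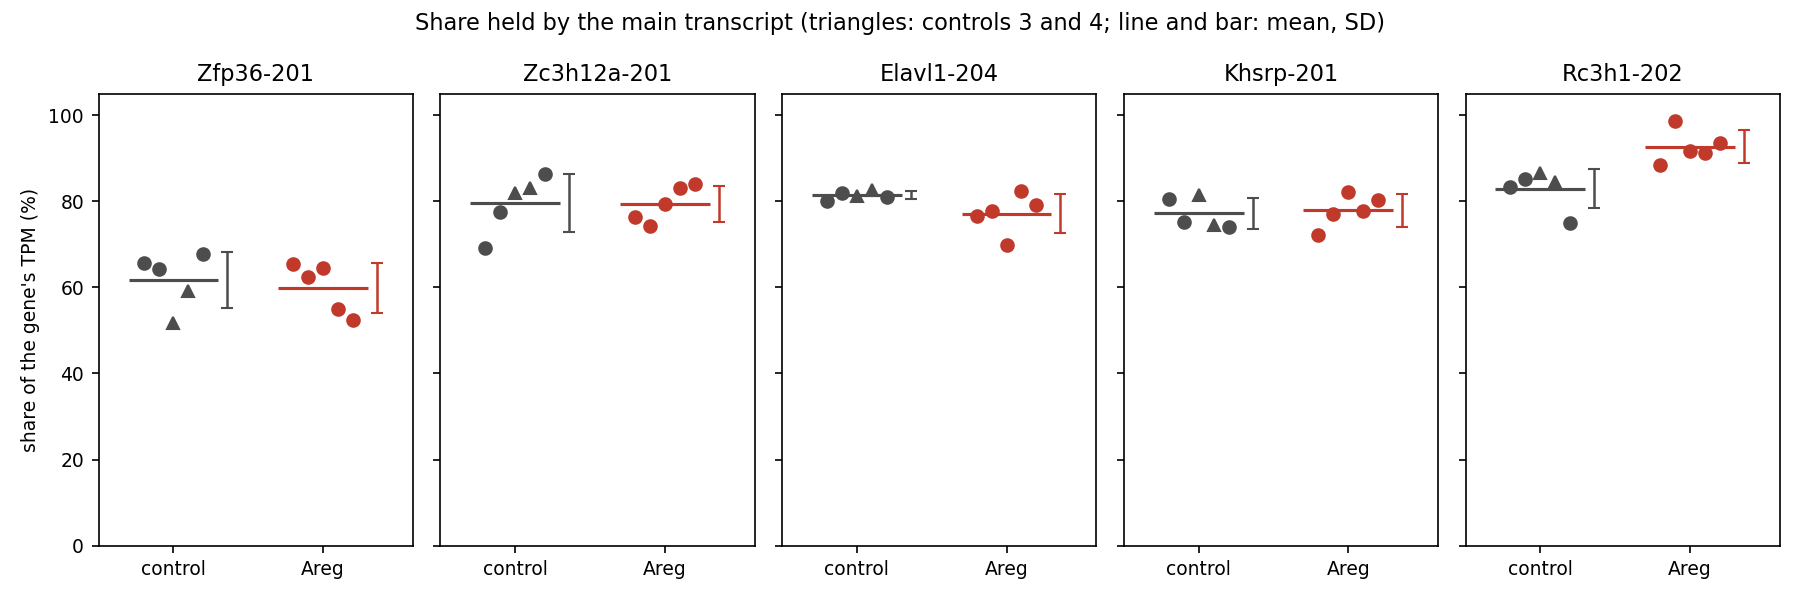
Share of the gene's TPM (%, y axis from 0) held by the main transcript of 5 decay factor genes in 5 control (grey) and 5 Areg (red) libraries, with controls 3 and 4 as triangles and the mean and SD as line and bar. The groups do not overlap for Rc3h1-202 (75.0 to 86.5% against 88.3 to 98.6%) and overlap for the 4 others.

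Close relatives of the 8 genes were measured as well. Fubp1, a KH-domain relative of KSRP, rose from 298 ± 25.7 to 367 ± 13.6 CPM, with a log2 fold change of 0.30 (edgeR adjusted p = 0.00188), and was called in all 23 alternatives. Its Areg values, from 351 to 381 CPM, lay above all controls, from 261 to 328 CPM. Fubp3 had a log2 fold change of 0.11 and Rc3h2, the gene of Roquin-2, of 0.11, and neither was called. The other Regnase genes, Zc3h12b and Zc3h12d, were near the detection limit, at 1.03 ± 0.318 and 0.880 ± 0.205 CPM in controls, and had log2 fold changes of -0.16 and -0.27 that were not called. The neuronal HuR relatives Elavl2, Elavl3 and Elavl4 and the placental Zfp36l3 were too low to test, reaching at most 1.00 CPM.

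Among 18 other proteins that bind AU-rich elements, 6 genes rose and none fell, where 8.34% of all tested genes rose and 8.32% fell, and the median log2 fold change was 0.11. They included Ncl, which encodes nucleolin, from 1423 ± 168 to 1810 ± 67.7 CPM (edgeR adjusted p = 0.00318), and the hnRNP genes Hnrnpab, Hnrnpc and Hnrnpdl, with log2 fold changes of 0.24, 0.23 and 0.28. Of these, the 3 hnRNP genes each lost the call in 3 of 23 alternatives and Ncl in none.

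Of 21 genes of deadenylation, the step to which the ZFP36 family and Roquin recruit enzymes, 3 rose and 1 fell (median log2 fold change 0.071), near the shares of 8.34% and 8.32% over all tested genes. Btg2, which activates the CCR4-NOT deadenylase, rose from 67.0 ± 4.04 to 83.9 ± 3.97 CPM (by log2 0.33, edgeR adjusted p = 0.000957). Tob2, of the same family as Btg2, fell from 131 ± 11.2 to 108 ± 4.58 CPM (-0.27, edgeR adjusted p = 0.00395). Both calls held in all 23 alternatives, so 2 relatives moved in opposite directions. The CCR4-NOT subunits Cnot2 and Cnot7 rose by log2 0.20 and 0.23, and lost the call in 5 and 11 alternatives.

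Of 18 genes of decapping and 5′ decay 2 rose and none fell, again beside 8.34% and 8.32% of all tested genes, namely Lsm5 (log2 fold change 0.46) and Lsm6 (0.31), which encode subunits of the LSM ring, and they lost the call in 9 and 10 alternatives. Of 17 tested genes of the RNA exosome and 3′ decay 3 rose and 1 fell, beside the same 8.34% and 8.32%, and Exosc6 was at 0 in every library. That 0 does not tell a silent gene from one that was assigned no reads. Pnpt1, a mitochondrial 3′ exoribonuclease, rose from 30.6 ± 1.45 to 40.5 ± 1.61 CPM (0.40, edgeR adjusted p = 0.00023) in all 23 alternatives, and Dis3, a catalytic subunit of the exosome, rose from 49.1 ± 5.56 to 63.9 ± 2.44 CPM (0.37, edgeR adjusted p = 0.00179) in all but 2. Mtrex (0.20) and Skiv2l (-0.19), both exosome cofactor helicases, lost the call in 14 and 12. In these 4 lists together 14 of 74 tested genes rose and 2 fell, with a median of 0.079, against 8.34% and 8.32% of all tested genes. The number that rose was 5 to 16 over the alternatives and lowest on the TPM scale. Fewer of all 13362 tested genes were called higher there too. They were 322 on log2(TPM + 1) and 325 on log2(TPM + 0.1), against 1114 in the main fit.

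Genes of the signalling that controls the decay factors gave 4 rises and 1 fall among 23, where 8.34% of all tested genes rose and 8.32% fell, with a median log2 fold change of 0.010. Malt1, the protease that cleaves Regnase-1 and Roquin, rose by 0.26 (edgeR adjusted p = 0.0135), and Mapk3, which encodes the kinase ERK1, fell by 0.26 (edgeR adjusted p = 0.0201). Rps6ka3 and the 14-3-3 gene Ywhaz rose by 0.24 and 0.14. Of the 23 alternatives, 3 lost the call of Malt1, 6 that of Mapk3, 9 that of Rps6ka3 and 14 that of Ywhaz.

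Transcripts reported elsewhere as targets of these decay factors were read from the same fit, in a list compiled with earlier results of these data known. Of 33 tested, 16 rose and none fell, with a median log2 fold change of 0.25, where 8.34% of all tested genes were called higher. The number that rose was 15 to 22 over the 23 alternatives and 22 without controls 3 and 4. The edgeR log2 fold changes were 0.98 for Il6, 1.02 for the Areg gene itself, 0.73 for Lif, 0.66 for Ereg, 0.63 for Il1b, 0.58 for Ptgs2, 0.57 for Cxcl1, 0.51 for Il11, 0.43 for Hif1a and 0.37 for Egr1, and each of these 10 was called in every alternative. Ptgs2, which encodes cyclooxygenase-2, had 237, 248, 202, 242 and 220 CPM in controls and 323, 360, 352, 353 and 335 CPM with Areg. The lowest Areg library was thus above the highest control by more than the whole spread within either group.

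2 targets with many motif copies did not pass the test in all 10 libraries. Tnf, the best-studied target of tristetraprolin, has 8 copies of TATTTAT in its 3′ UTR, and it had 21.4 to 26.8 CPM in controls and 22.3 to 30.3 CPM with Areg (a log2 difference of 0.11, edgeR adjusted p = 0.434). Cxcl2, with 7 copies, had 495 to 811 CPM and 750 to 876 CPM (0.30, edgeR adjusted p = 0.0845). Tnf was called in none of the 23 alternatives. Cxcl2 was called higher in 7 of them, among them DESeq2 (0.30, adjusted p = 0.0239), limma-voom (0.32, adjusted p = 0.0464), without control 1 (0.21, edgeR adjusted p = 0.0499), without control 4 (0.38, edgeR adjusted p = 0.0236) and without controls 3 and 4 (0.46, edgeR adjusted p = 0.0282), and its value was 0.12 with the length and GC trend removed. These 2 were picked after their values were seen. TATTTAT was present in 23 of the 33 targets, of which 13 rose, and absent from 10, of which 3 rose, and this difference was not tested. In the first 500 bases of the 3′ UTR, 10 of 22 targets with so long a 3′ UTR held it, against the 11.8% of all tested genes given above. Some of the factors that define this list bind the motif, so the contrast follows in part from how the list was made.

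**Figure D4:**
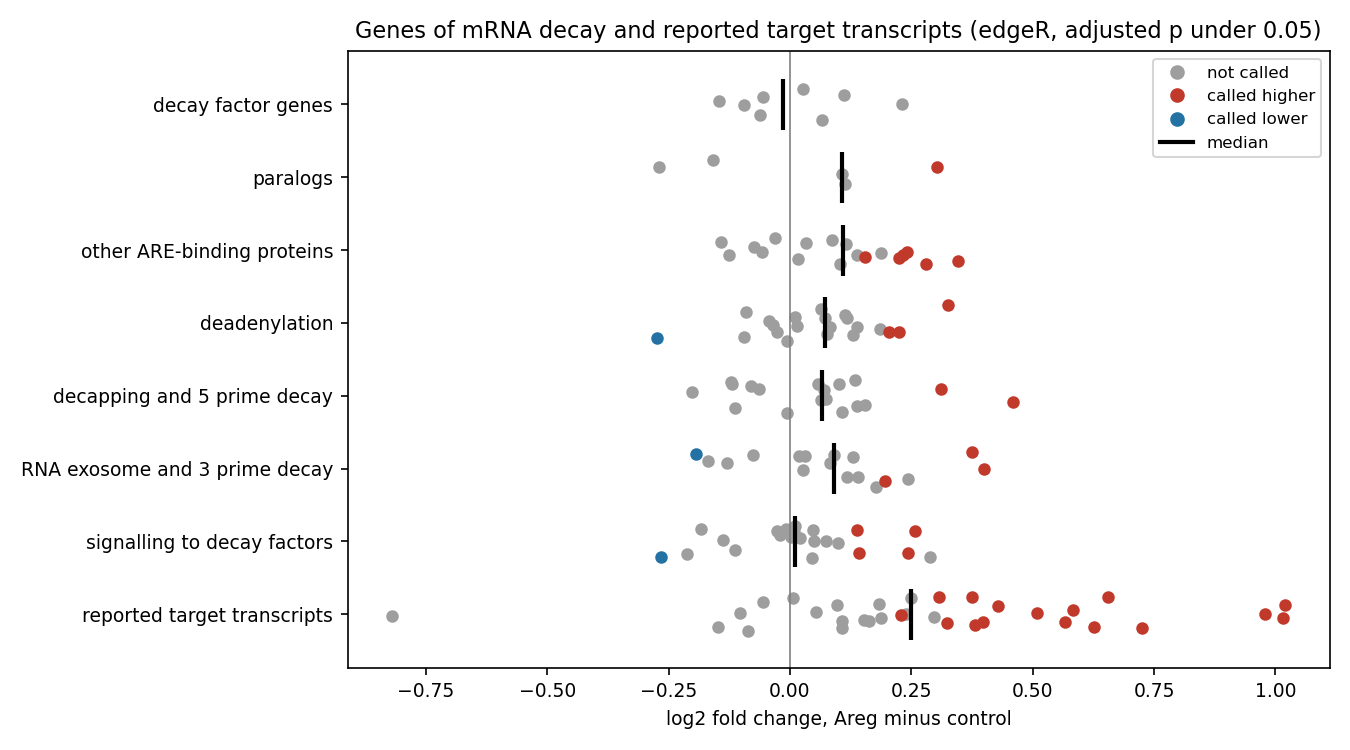
Log2 fold change (Areg minus control, x axis) of every tested gene in 8 lists, 1 point per gene, red where called higher and blue where called lower by edgeR (adjusted p under 0.05), with the median as a black line. None of the 8 decay factor genes is called, and the reported targets reach 1.02 with a median of 0.25.

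Over all 12862 tested genes with a 3′ UTR, the share called higher was 7.40% for the 9323 genes with no TATTTAT, 10.1% for 2316 genes with 1 copy, 12.4% for 744 with 2 and 13.2% for 479 with 3 or more. The share called lower was 9.35, 7.47, 5.51 and 2.92% in the same order. These classes also differ in the length of the 3′ UTR, with medians of 662, 1668.5, 2291 and 3248 bases, and in A and T content, at 54.5, 57.5, 59.5 and 60.6%. Within 3′ UTRs of 1500 to 3000 bases the shares called higher were 7.80, 9.07, 14.2 and 10.9%, and those called lower 12.1, 7.07, 3.54 and 2.17%. Without controls 3 and 4 the shares over all lengths were 7.73, 9.89, 9.89 and 12.7% higher and 7.85, 8.20, 6.86 and 5.73% lower. With the length and GC trend removed they were 6.96, 8.59, 11.2 and 13.6% higher and 6.23, 5.96, 6.18 and 5.01% lower, so in that setting the share called higher went up with each class and the share called lower did not go down with each. The parts of length, composition and motif in these shares were not tested separately.

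**Figure D5:**
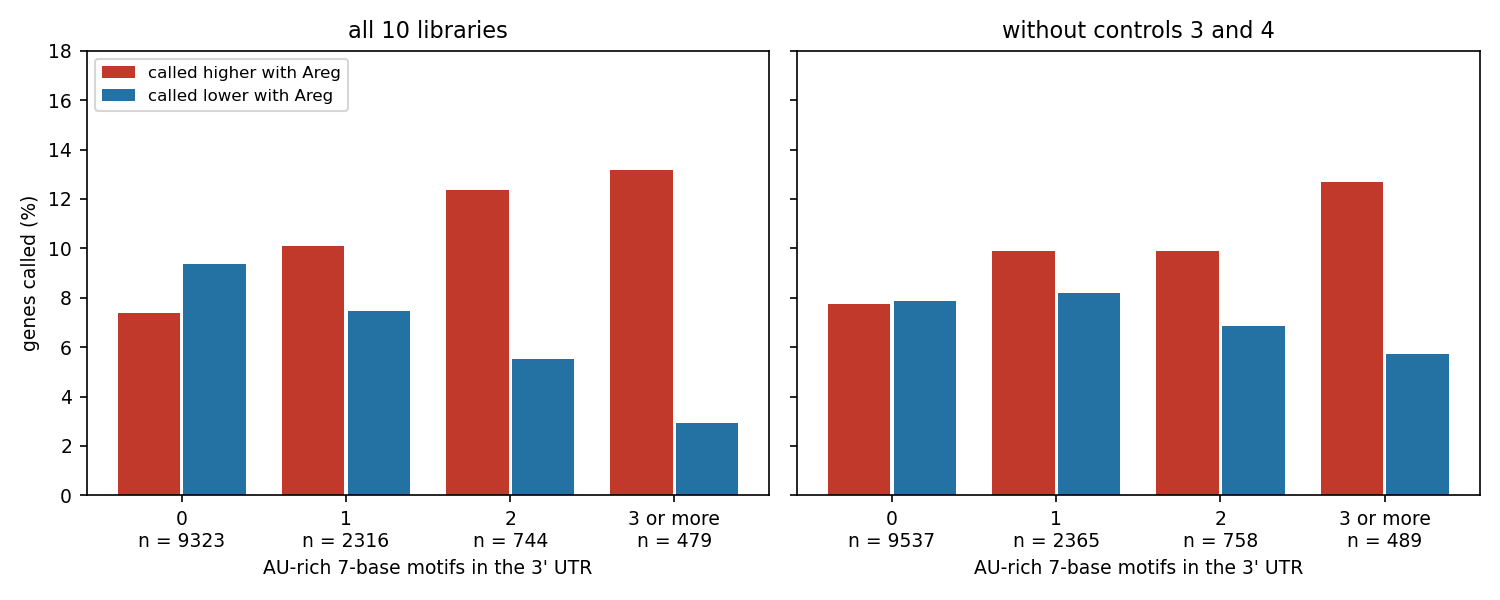
Share of tested genes (%, y axis from 0) called higher (red) or lower (blue) with Areg by the number of TATTTAT motifs in the 3′ UTR (x axis, with the number of genes), for all 10 libraries and without controls 3 and 4. The share called higher goes from 7.40% with none to 13.2% with 3 or more, and from 7.73% to 12.7% without those 2 controls.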

How the data were processed

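Per the labels' protocols, poly-A RNA was sequenced from TruSeq libraries. Estimated counts and TPM per transcript were deposited for each library, as kallisto writes them, with TPM scaled by the authors' run to transcript length and a fixed total, per the file headers. The tools in the submitters' processing notes are bcl2fastq 2.19, kallisto 0.44.0 and DESeq2, and the build is GRCm38.p6. Neither the transcript set nor the strand setting is given in the sources used here, so overlapping and antisense genes cannot be separated, and reads of near-identical copies are shared by estimation. GENCODE M21 matched 116816 of 118489 transcripts, and the others held 0.736 to 0.778% of counts and were left out. Estimated counts were summed per gene and rounded. edgeR 4.0.16 in R 4.3.3 (quasi-likelihood, robust, TMM, filterByExpr with minimum count 10) tested 13362 genes, with Benjamini-Hochberg adjustment over all of them and a threshold of 0.05. CPM are TMM-scaled. Ratios and transcript shares were tested by exact permutation of libraries. No 2 libraries of a group agreed within sampling noise (chi-square over degrees of freedom 3.74 to 50.4).

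The genes, lists and tests were chosen with earlier results of these data known. All 8 genes and their tested relatives are named, with up to 4 called genes of smallest p per list (10 for targets). The alternatives were other normalization factors, other filters, DESeq2 1.42.0, limma-voom (limma 3.58.1), an effective length offset, limma-trend on log2(TPM + 1) or log2(TPM + 0.1), a replicate block and each library left out. Settings without controls 3 and 4, and with a per-library spline trend in length and GC removed, were added after the data were seen. Sequences were read from GENCODE M21 transcripts of GRCm38.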

Additional observations from a re-analysis of the deposited data

Results flagged for a closer look

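Of 106 groups of 5 libraries tested for a single distant value, 2 held one, where chance flags about 1 in 20. The share of Rc3h1 TPM in the long form Rc3h1-202 was 75.0% in control 5, below the 83.2 to 86.5% of the 4 other controls. The count of Hif1a was 407 CPM in control 3, below the 490 to 521 CPM of the 4 other controls.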

How the results depend on the processing

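The 10 named target transcripts kept their call in all 23 alternatives, as did Fubp1, Ncl, Btg2, Tob2 and Pnpt1. Each library left out in turn gave 1364 to 2314 genes called, 0 to 1 of the 8 decay factor genes, 0 to 1 targets lower, 9 to 16 decay machinery genes higher and 1 to 2 lower. The log2 fold changes then ranged from 0.039 to 0.11 for Zfp36, -0.14 to -0.041 for Zfp36l1, -0.086 to -0.041 for Zfp36l2, -0.12 to 0.0091 for Zc3h12a, 0.15 to 0.29 for Zc3h12c, 0.096 to 0.14 for Elavl1, -0.18 to -0.11 for Khsrp and -0.016 to 0.081 for Rc3h1. The differences in log2 ratio ranged from -0.073 to 0.033 for Zfp36l1/Zfp36l2, -0.42 to -0.16 for Zc3h12a/Zc3h12c, -0.21 to 0.014 for Zc3h12a/Rc3h1 and -0.10 to 0.013 for Zfp36/Elavl1. Those in transcript share ranged from -4.29 to 0.097 points for Zfp36, -2.78 to 1.54 for Zc3h12a, -5.55 to -2.45 for Elavl1, -0.37 to 2.09 for Khsrp and 7.84 to 10.9 for Rc3h1. The cause was not tested for any change named here.

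Without controls 3 and 4, 1 of the 8 was called (Zfp36, log2 fold change 0.17), 1 machinery gene fell, and values changed sign for Zfp36l1 (0.018), Zc3h12a (0.083), Rc3h1 (-0.085), Rc3h2 (-0.0092) and Zc3h12b (0.030). The log2 ratio differences became 0.23 for Zfp36/Zfp36l2, 0.070 for Zfp36l1/Zfp36l2, 0.0084 for Zc3h12a/Zc3h12c, 0.17 for Zc3h12a/Rc3h1 and 0.10 for Zfp36/Elavl1, and the share differences -5.97 points for Zfp36, 1.79 for Zc3h12a, 1.25 for Khsrp and 11.6 for Rc3h1. With the length and GC trend removed, 1 of the 8 was called (Zfp36, 0.15), 9 machinery genes rose, and the values were 0.045 for Zfp36l2, 0.10 for Zc3h12a, -0.018 for Elavl1, 0.026 for Khsrp, -0.030 for Rc3h1 and -0.027 for Rc3h2. With both, 1 was called (Zfp36, 0.21), 8 machinery genes rose and 1 fell, and the values were 0.0074 for Zfp36l1, 0.012 for Zfp36l2, 0.16 for Zc3h12a, -0.012 for Elavl1, 0.028 for Khsrp, -0.036 for Rc3h1 and -0.012 for Rc3h2.

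An effective length offset called 1149 genes, with 7 machinery genes higher and 1 lower, and gave -0.084 for Rc3h1. On log2(TPM + 1) 856 genes were called, with 5 machinery genes higher and 1 lower, and Rc3h1 was at -0.093. On log2(TPM + 0.1) these were 868, 5, 1 and -0.097. Of all calls 50.04% were higher with all 10 libraries by edgeR, 37.6% on log2(TPM + 1) and 37.4% on log2(TPM + 0.1). TPM in place of counts moved the Zc3h12a/Rc3h1 difference to 0.015, and estimated counts moved the Khsrp share difference to -0.74 points. Upper quartile factors and the filter of 1 CPM in 5 libraries each called 1 target lower, and no filter called 1 machinery gene lower.

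The replicate number as a block called 2357 genes and 1 of the 8, Khsrp (-0.15, edgeR adjusted p = 0.0323). Pairing by number was not evident, since deviations of same-numbered libraries correlated at -0.059 to 0.22, with 2 of 5 pairs over 0.1, and 2 of the 5 controls correlated best with their own number.

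Depth limits the precision of the low genes, and Zc3h12c had as few as 294 estimated counts in a library.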
